A study of Mus musculus with 6 samples.

Results

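The laminin chains expressed in mouse sciatic nerve, the nidogens and perlecan were followed through a comparison of nerves labelled as a conditional knockout (cKO) of YAP and TAZ with wild-type (WT) nerves. The 10 genes were taken by name from the 24421 genes counted in each library, namely the alpha chains Lama1, Lama2, Lama4 and Lama5, the beta chains Lamb1 and Lamb2, the gamma chain Lamc1, the nidogens Nid1 and Nid2, and Hspg2, which encodes perlecan. The series holds 6 RNA-seq libraries of total RNA, 3 from cKO mice and 3 from WT mice per its design text. The genotype labels give both genes together as a double ("DBL") cKO, and WT for the controls. Which alleles were used, what drove the deletion, how old the mice were and whether nerves were pooled is not stated in the sources used here.

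Laminins are cross-shaped trimers of one alpha, one beta and one gamma chain, and they are the polymer on which a basal lamina is built. Each Schwann cell in a nerve is wrapped in such a lamina, in which the Lama2 chain together with Lamb1 and Lamc1 makes the main laminin, and chains such as Lama4 add others. Endothelial cells, perineurial cells and muscle fibres have basal laminae of their own. Nidogens link the gamma chain to type IV collagen and to perlecan, a large heparan sulfate proteoglycan. Loss of Lama2 in mice and patients causes muscular dystrophy with a dysmyelinating neuropathy, and Schwann cells bind laminins through dystroglycan and integrins.

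Depth ranged from 24651262 to 47044158 gene counts per library, and every WT library was deeper than every cKO-labelled one. The counts of the targeted genes over their whole length check neither label, because the deleted parts are not known. Yap1 lay at 102.6 to 108.8 CPM (read counts scaled to library size) in the cKO-labelled and at 120.4 to 123.7 CPM in the WT libraries (edgeR adjusted p = 0.145), while Wwtr1, which encodes TAZ, was higher in the cKO-labelled libraries, at 337.4 to 372.0 against 253.8 to 284.2 CPM (edgeR adjusted p = 0.0208). Every direction given here is therefore that of the labels. Skeletal muscle transcripts were higher in the cKO-labelled libraries, where the sum of 12 muscle markers was 3537 to 8182 CPM against 348.2 to 1368 CPM in WT. Their mean log2 CPM, added to some fits below, was 6.65 to 8.05 in the cKO-labelled and 3.35 to 5.49 in the WT libraries. Since muscle level separates the groups, its part and that of the group cannot be told apart in those fits. The scaling used TMM factors. With total counts in their place, the median change over all genes moved by 0.124 on the log2 scale, and the calls over all genes went from 912 lower and 706 higher to 606 lower and 1273 higher.

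The upstream sequence of 6 members was available from RefSeq (GRCm38.p6), and 3 of them are shown because they hold the chain that fell most clearly, an alpha chain with several GC boxes before its start, and the only motif match for TEAD, the factor through which YAP and TAZ act. The 250 bases before the RefSeq transcription start were searched on both strands for the TEAD core GGAATG and for the GC box GGGCGG, 2 motifs that share no bases in these windows. Each stretch is given 5′ to 3′ on the strand of its gene, with motif matches in capitals, and ends at the RefSeq start or, where that comes first, at an annotated GENCODE exon.
Lama2, chr10:27616943-27617192, minus strand: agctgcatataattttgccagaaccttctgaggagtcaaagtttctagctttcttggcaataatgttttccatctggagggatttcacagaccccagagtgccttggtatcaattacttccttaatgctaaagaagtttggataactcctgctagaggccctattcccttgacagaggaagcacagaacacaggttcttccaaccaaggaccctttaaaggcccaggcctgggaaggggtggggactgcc
Lama5, chr2:180225860-180226109, minus strand: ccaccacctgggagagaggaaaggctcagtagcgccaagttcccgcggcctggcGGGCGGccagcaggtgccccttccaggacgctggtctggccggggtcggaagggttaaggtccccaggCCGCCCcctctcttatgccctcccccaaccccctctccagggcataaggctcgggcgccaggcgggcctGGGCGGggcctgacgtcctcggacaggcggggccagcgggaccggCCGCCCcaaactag
Nid1, chr13:13437352-13437550, plus strand: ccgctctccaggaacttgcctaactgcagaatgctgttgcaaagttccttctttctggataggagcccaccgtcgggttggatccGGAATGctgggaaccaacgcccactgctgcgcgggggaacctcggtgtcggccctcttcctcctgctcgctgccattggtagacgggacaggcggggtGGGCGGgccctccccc
The Lama2 window lies before the RefSeq start at 27616942, which is 99 bases upstream of the outermost protein-coding start in GENCODE (27616843). It lies inside the GENCODE gene span given with the values of Lama2, because 1 retained-intron transcript there begins 2816 bases further upstream, and the sequence before that start was not searched. In this window Lama2 held neither motif, at a GC content of 47.2%. The Lama5 stretch held 4 GC boxes at 72.4% GC. Nid1 had 1 TEAD core, beginning 165 bases before the RefSeq start, and 1 GC box. No TEAD core was found in the windows of Lamb1, Lamb2 and Hspg2, which held 2, 0 and 5 GC boxes. Of all 32851 windows of this length in the table, 12.6% held the TEAD core and 32.7% the GC box. A match here is a match of letters only.

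Of the 10 members, all of which passed the filter on low counts, 2 fell and 1 rose in the cKO-labelled libraries. Lama2 and Nid2 fell and Lama1 rose (edgeR quasi-likelihood test, adjusted p under 0.05 over 14789 genes). Over all genes tested, 6.17% were called lower and 4.77% higher. Every cKO-labelled library was below every WT library for 4 members (Lama2, Lamb1, Nid1 and Nid2), against 15.8% of all genes, and above every WT library for 2 (Lama1 and Lama5), against 15.3% of all genes. The median log2 fold change of the 10 members was -0.13, beside 0.02 for all genes. The alpha chains differed among themselves in direction, with 1 lower, 1 higher and 2 not called. These are counts of whole nerve, in which fewer cells of a type and less RNA per cell cannot be told apart.

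**Figure D1:**
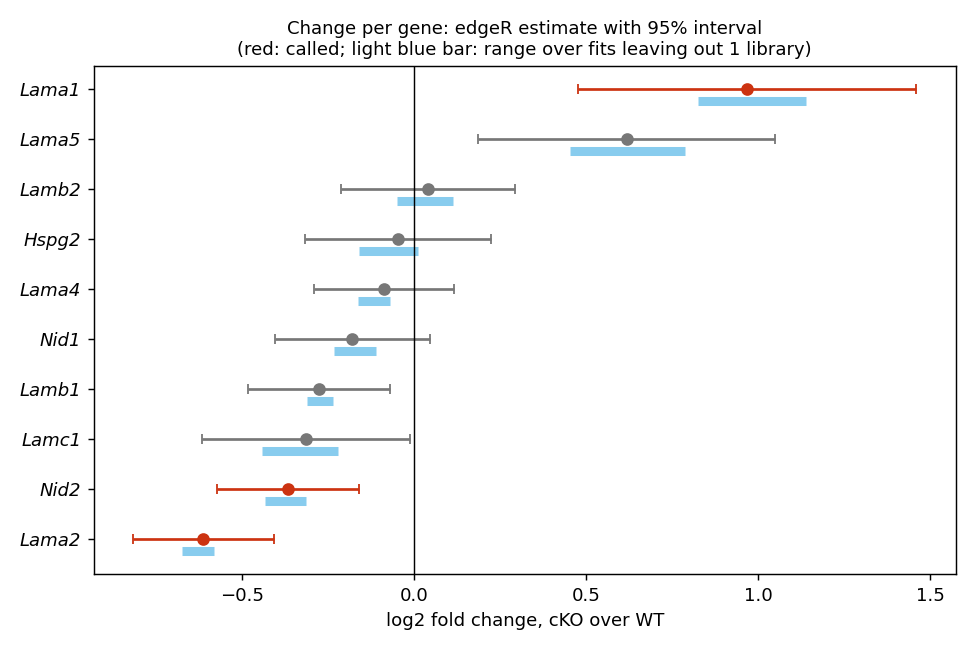
Log2 fold change (cKO over WT, x axis) of each of the 10 genes from edgeR, with its 95% interval as a line and, as a light blue bar, the range of the estimate over the 6 fits that each left out 1 library. The called genes are red: Lama1 at 0.97, Nid2 at -0.36 and Lama2 at -0.61.

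Lama2 (mm10 chromosome 10, 26980036 to 27619758, minus strand) encodes the alpha chain of the main Schwann cell and muscle laminin. It stood at 692.0, 722.6 and 656.2 CPM in WT 1, 2 and 3 and at 433.0, 478.1 and 444.8 CPM in cKO 1, 2 and 3. The lowest WT library was well above the highest cKO-labelled one. The log2 fold change was -0.61 ± 0.09 (SE, n = 3 per group, edgeR adjusted p = 0.00392), a 1.53-fold fall with a 95% interval of -0.81 to -0.41. The call held in all 6 fits that left out 1 library, with log2 fold changes of -0.67 to -0.58. Adding the mean muscle marker level to the fit left the estimate nearly the same, -0.59, but its SE grew to 0.18 and it was no longer called (edgeR adjusted p = 0.243). An annotated antisense transcript shares 631 exon bases with Lama2, and the strand setting of the counting is not given.

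Lama1 (chromosome 17, 67697259 to 67822647, plus strand), the alpha chain of the early embryonic laminin, rose from a low level. WT 1, 2 and 3 held 4.003, 2.88 and 2.65 CPM, and cKO 1, 2 and 3 held 6.06, 6.58 and 6.03 CPM. The groups did not overlap, and the 3 cKO-labelled values lay close together. This was a log2 difference of 0.97 ± 0.22, or 1.96-fold (edgeR adjusted p = 0.022). These levels rest on 105 to 201 reads per library. Dropping cKO 1, cKO 2, cKO 3 or WT 2 ended the Lama1 call (edgeR adjusted p = 0.0511, 0.0756, 0.0832 and 0.0814), with the direction kept. With muscle level added to the fit, the estimate was 0.70 ± 0.41 (edgeR adjusted p = 0.625).

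Lama5 (chromosome 2, 180176373 to 180225859, minus strand), the alpha chain of many vascular and epithelial basement membranes, was also low. It stood at 12.7, 9.82 and 16.2 CPM in WT 1, 2 and 3 and at 16.9, 21.6 and 21.01 CPM in cKO 1, 2 and 3. WT 3 came within reach of cKO 1, so the groups were separate by a narrow gap. At a log2 fold change of 0.62 ± 0.19 Lama5 was not called (edgeR adjusted p = 0.0753), although it was without WT 3 (edgeR adjusted p = 0.0149), with total counts (edgeR adjusted p = 0.0298) and by DESeq2 (adjusted p = 0.0265). With muscle level added to the fit it was -0.01 ± 0.27 (edgeR adjusted p = 0.997). WT 3 also had the highest summed endothelial markers of the WT libraries, 653.1 CPM against 423.4 and 407.2 in WT 1 and WT 2, and the part of such cells in the Lama5 level was not tested.

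Lama4 (chromosome 10, 38965515 to 39110188, plus strand), an alpha chain with a short arm that cannot polymerise, found in endothelial and Schwann cell laminae, was not called. WT 1, 2 and 3 held 586.7, 551.3 and 508.9 CPM, and cKO 1, 2 and 3 held 517.9, 517.9 and 516.2 CPM. The cKO-labelled values fell inside the WT range. Its log2 difference was -0.09 ± 0.09 (edgeR adjusted p = 0.629), with a 95% interval of -0.29 to 0.12 that reaches from 0.818 to 1.09 times the WT level. Its sign turned with total counts (0.04).

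**Figure D2:**
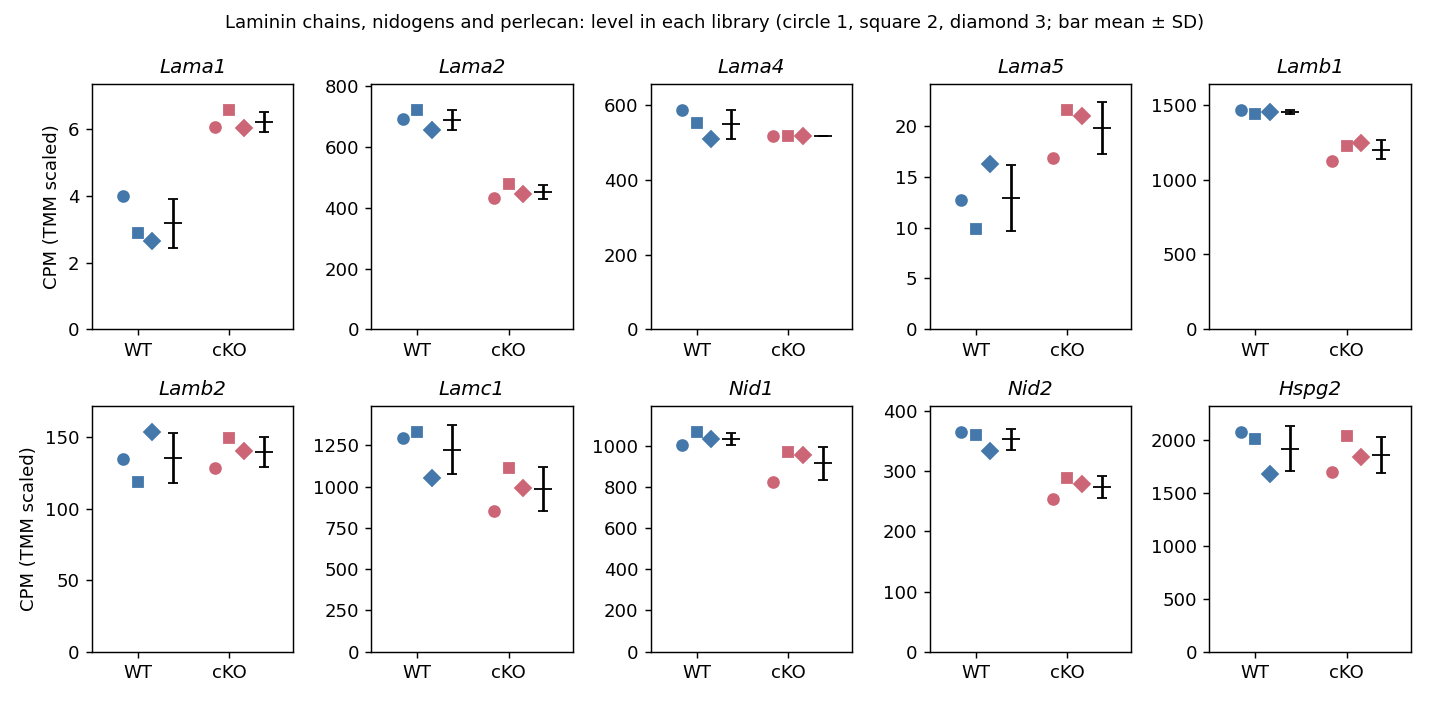
TMM-scaled CPM (y axis, from 0, a scale for each gene) of the 10 genes in the 3 WT (blue) and 3 cKO-labelled (red) libraries, with the mean and SD of each group in black. Lama2, Nid2, Lamb1 and Nid1 are lower in all 3 cKO-labelled libraries and Lama1 and Lama5 higher, while the groups overlap for Lama4, Lamb2, Lamc1 and Hspg2.

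Of the beta and gamma chains, which every laminin trimer needs, none was called. Lamb1 (chromosome 12, 31265234 to 31329644, plus strand), the beta chain of most laminins of the nerve, stood at 1466, 1439 and 1450 CPM in WT 1, 2 and 3 and at 1126, 1225 and 1246 CPM in cKO 1, 2 and 3. The WT values were nearly equal and all above the cKO-labelled ones. Lamb1 had a log2 fold change of -0.28 ± 0.09 (SE) and missed the threshold (edgeR adjusted p = 0.0944). DESeq2 called it (adjusted p = 0.00395), while no edgeR or limma fit did. Lamb2 (chromosome 9, 108479736 to 108490530, plus strand), the beta chain concentrated at synapses and in the perineurium, lay at 118.4 to 153.4 CPM in WT and 128.6 to 149.6 CPM in the cKO-labelled libraries. Its log2 fold change of 0.04 ± 0.11 (edgeR adjusted p = 0.88) had a 95% interval of -0.21 to 0.29, and its sign turned without cKO 2 (-0.01), without WT 2 (-0.05) and when muscle level was added to the fit (-0.30).

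Lamc1 (chromosome 1, 153218922 to 153332786, minus strand) is the gamma chain of nearly all nerve laminins, and Schwann cells that lack it fail to sort axons. WT 1, 2 and 3 held 1295, 1329 and 1051 CPM, and cKO 1, 2 and 3 held 850.2, 1113 and 993.7 CPM. WT 3 lay below cKO 2, so the groups overlapped. The difference of -0.31 ± 0.13 on the log2 scale did not pass (edgeR adjusted p = 0.187). Of all alternatives run, only the fit without WT 3 called Lamc1 lower (log2 -0.44, edgeR adjusted p = 0.0419).

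The nidogens were lower in all 3 cKO-labelled libraries, and 1 of the 2 was called. Nid2 (chromosome 14, 19751265 to 19811787, plus strand) stood at 364.7, 361.0 and 333.1 CPM in WT 1, 2 and 3 and at 253.5, 289.3 and 279.5 CPM in cKO 1, 2 and 3. The groups were clearly apart. Nid2 fell by 0.36 on the log2 scale (SE 0.09, edgeR adjusted p = 0.0341), a 1.29-fold fall. Dropping cKO 1, cKO 2, cKO 3, WT 1 or WT 2 ended the Nid2 call (edgeR adjusted p = 0.0742, 0.0604, 0.116, 0.0815 and 0.115), while it held without WT 3. The call was also lost with total counts (edgeR adjusted p = 0.151) and when muscle level was added to the fit, which gave -0.41 ± 0.18 (edgeR adjusted p = 0.491). Rtraf (2700060E02Rik in the files), a protein-coding gene on the other strand, shares 437 exon bases with Nid2 and differed by -0.07 ± 0.09 on the log2 scale (edgeR adjusted p = 0.716).

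Nid1 (chromosome 13, 13437551 to 13512269, plus strand), the more abundant nidogen, stood at 1006, 1065 and 1035 CPM in WT and at 822.9, 968.7 and 954.4 CPM in cKO 1, 2 and 3. The lowest WT value was just above the highest cKO-labelled one. The log2 fold change of -0.18 ± 0.10 was not called (edgeR adjusted p = 0.317). Hspg2 (chromosome 4, 137468769 to 137570630, plus strand), perlecan, had the most reads of the 10 genes, at 1678 to 2069 CPM in WT and 1697 to 2038 CPM in the cKO-labelled libraries. Both ranges covered the same values. Perlecan thus differed by -0.05 ± 0.12 on the log2 scale (edgeR adjusted p = 0.877), with a 95% interval of -0.32 to 0.23, and its sign turned without cKO 1 (0.01) and with total counts (0.08).

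Levels of different genes were compared within a library as CPM per kilobase of annotated exon sequence. In WT, Nid1 (149.1 ± 4.21, SD, n = 3), Lamc1 (148.1 ± 18.3), Lamb1 (146.4 ± 1.36) and Hspg2 (133.9 ± 14.6) had the 4 highest values. The order of Nid1, Lamc1 and Lamb1 varied between the WT libraries. Hspg2 ranked 4 in each WT library and 1, 1 and 2 in cKO 1, 2 and 3. Nid2 followed at 68.2 ± 3.34, then Lama4 at 45.5 ± 3.23 and Lama2 at 42.2 ± 2.04, whose ranges overlapped in WT. Lamb2 came next at 22.3 ± 2.88, and Lama5 (1.13 ± 0.282) and Lama1 (0.328 ± 0.075) were far below the others. Ranks 5 to 10 were the same in all 6 libraries. In the cKO-labelled libraries Lama2 went to 27.7 ± 1.43, clear of Lama4 at 42.9 ± 0.083 and closer to Lamb2 at 22.9 ± 1.72.

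The order depends in part on the gene length used, since the joined exons of Lama2, Lama4 and Lamb1 are much longer than their longest transcripts (16338 against 9614 bases for Lama2). Per kilobase of the longest transcript, Lamb1 was first in all 6 libraries (250.9 ± 2.33 in WT), Lama4 stood at 90.8 ± 6.44, and Lama2 (71.8 ± 3.46) and Nid2 (72.4 ± 3.54) could not be told apart in WT. The 4 genes with the highest values, and Lamb2, Lama5 and Lama1 at the foot, were the same with both lengths. With the longest transcript as length, Hspg2 ranked 4 in each WT library and 3, 4 and 4 in cKO 1, 2 and 3.

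Within the 4 alpha chains, the share of Lama2 was smaller in the cKO-labelled libraries. Lama2 made up 45.8%, 48.6% and 47.8% of the alpha chain reads per kilobase in WT 1, 2 and 3 and 37.0%, 39.2% and 37.6% in cKO 1, 2 and 3. Lama4 went the other way, from 50.2% to 52.6% in WT to 57.4% to 60.0%. Its own level did not rise (log2 -0.09 ± 0.09, edgeR adjusted p = 0.629), and a smaller Lama2 share leaves larger shares to the rest. The Lama5 share was 1.28% ± 0.38 (SD, n = 3) in WT and 2.38% ± 0.27 in the cKO-labelled libraries, and the Lama1 share 0.366% ± 0.0701 and 0.881% ± 0.0256. None of these 4 shares overlapped between the groups, but as parts of the same sum they are not separate results. With the longest transcript as length, the mean Lama2 share was 43.8% in WT and 34.8% in the cKO-labelled libraries. Of the 2 beta chains, Lamb1 made up 86.8% ± 1.45 in WT and 84.1% ± 0.589 in the cKO-labelled libraries.

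**Figure D3:**
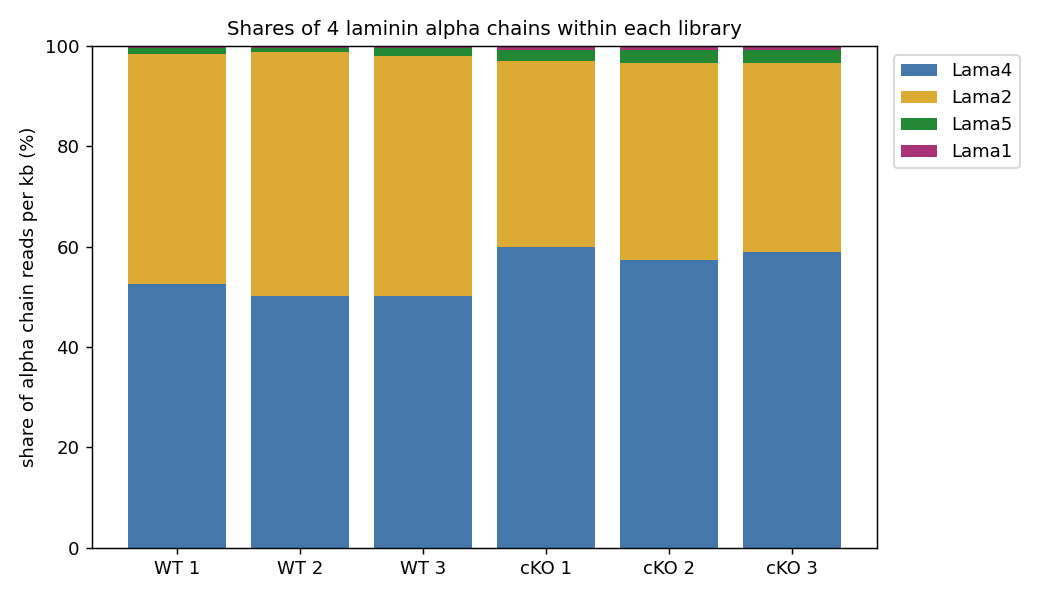
Share of each alpha chain (y axis, percent of the reads per kilobase of the 4 alpha chains) in the 6 libraries. Lama2 takes 45.8% to 48.6% in the WT libraries and 37.0% to 39.2% in the cKO-labelled ones, with Lama4 as the other large share.

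The 10 ratios between members, which need no scaling between libraries, were compared by an exact two-sided permutation test, in which 3 libraries against 3 cannot give a p under 0.1. For 7 of the 10 ratios the groups did not overlap. Each had an exact permutation p of 0.1 (0.143 adjusted over the 10 ratios), so none could pass. The ratios share genes, so these 7 are not separate results. Among single genes, 15.8% lay below every WT library in every cKO-labelled one and 15.3% above. That share was not computed for ratios of other genes. The ratio of Lama4 to Lama2 was 1.15, 1.03 and 1.05 in WT 1, 2 and 3 and 1.62, 1.47 and 1.57 in cKO 1, 2 and 3, which is 1.44-fold higher. The ratios of Lama1 and Lama5 to Lama2 were 3.04-fold and 2.38-fold higher. Since Lama2 is the divisor of all 3, they share its fall.

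Against Lamc1, which nearly every trimer contains, Lama2 was 1.23-fold lower (ratio 0.287 ± 0.025 in WT and 0.234 ± 0.0212 in the cKO-labelled libraries, SD, n = 3) and Hspg2 1.21-fold higher, both without overlap. Taken alone, Hspg2 differed by -0.05 and its divisor Lamc1 by -0.31 on the log2 scale, neither of them called. The ratio of Lamb1 to Lamb2 went from 6.64 ± 0.828 to 5.28 ± 0.228, and that of Nid2 to Nid1 from 0.458 ± 0.0274 to 0.402 ± 0.0103. The summed alpha chains held to Lamc1 at 0.606 ± 0.049 in WT and 0.618 ± 0.0714 in the cKO-labelled libraries (exact permutation p = 0.8), a difference inside the spread. The summed beta chains to Lamc1 (exact permutation p = 0.7) and Nid1 to Lamc1 (exact permutation p = 0.4) overlapped as well.

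**Figure D4:**
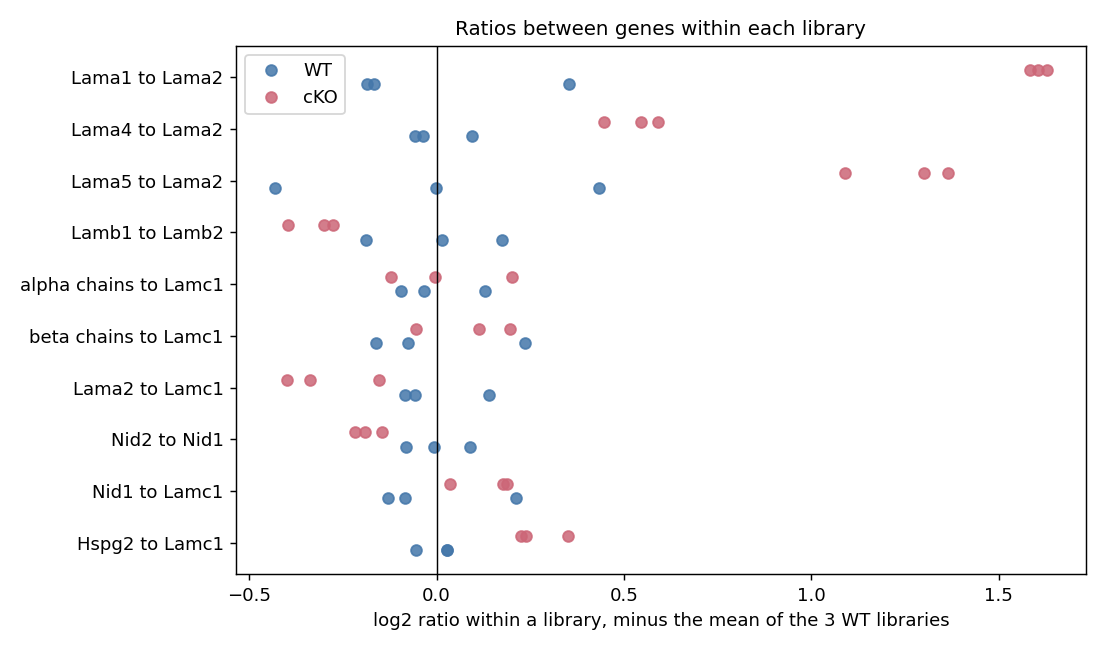
Log2 ratio of 2 genes, or of summed chains and a gene, within each library, less the mean of the 3 WT libraries (x axis), for the 10 ratios. The cKO-labelled points (red) lie to the right of all WT points (blue) for the 3 ratios to Lama2 and for Hspg2 to Lamc1, and to the left for Lamb1 to Lamb2, Lama2 to Lamc1 and Nid2 to Nid1.

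The other laminin chains Lama3, Lamb3 and Lamc3 were rare, none of them above 4.46 CPM in any library, and none was called. Lama3 and Lamb3 are chains of the laminin of epithelia such as skin. Lamc3, a gamma chain, stood at 2.92, 2.60 and 2.27 CPM in WT and at 0.965, 1.32 and 2.04 CPM in cKO 1, 2 and 3. Its groups did not overlap, but at -0.85 ± 0.33 on the log2 scale it did not pass (edgeR adjusted p = 0.148).

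Of 17 other basal lamina genes, 2 fell and 2 rose, with a median log2 fold change of 0.05. Among all genes, 6.17% were called lower and 4.77% higher. Col4a5, a chain of a minor type IV collagen network, fell by 1.31 on the log2 scale (edgeR adjusted p = 0.000451). Its neighbour and partner Col4a6 stood at 1.77, 2.65 and 1.36 CPM in WT and at 0.0603, 0.156 and 0.377 CPM in cKO 1, 2 and 3 (edgeR adjusted p = 0.00873). A count of 3 would be 0.0937, 0.122 and 0.0994 CPM in those 3 libraries, so cKO 1 is below that limit. The main chains Col4a1 (log2 -0.03 ± 0.10) and Col4a2 (0.11 ± 0.11) were not called.

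Col18a1, a collagen of vascular and other basement membranes whose end piece is endostatin, stood at 220.6, 193.3 and 216.9 CPM in WT and at 392.4, 385.1 and 391.0 CPM in cKO 1, 2 and 3. Those groups were far apart, and Col18a1 rose by 0.89 ± 0.09 on the log2 scale (edgeR adjusted p = 0.00061). Fbln2, a fibulin that binds laminins and nidogens, rose by 0.54 ± 0.10 (edgeR adjusted p = 0.0108), a call lost without cKO 3 or WT 1 (edgeR adjusted p = 0.0683 and 0.063). The 2 higher calls of this list became 5 with total counts, 4 by DESeq2, 4 without WT 3 and 1 without cKO 3. Sparc, which chaperones type IV collagen, did not pass (log2 0.01 ± 0.11). Of 6 netrins, which share domains with laminins, Ntn3 fell (log2 -0.50 ± 0.13, edgeR adjusted p = 0.0429) and no other was called. The share of all genes called lower was 6.17%. Leaving out cKO 1, cKO 2, cKO 3, WT 1 or WT 2 ended the Ntn3 call (edgeR adjusted p = 0.101, 0.0639, 0.129, 0.0954 and 0.128).

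On the receptor side, 3 of 9 laminin receptors fell and 0 rose, against 6.17% of all genes called lower and 4.77% higher. The median log2 fold change was -0.21, with 6 values below 0 and 3 above. Not called were Dag1, which encodes dystroglycan (log2 0.003 ± 0.13, edgeR adjusted p = 0.994), and Itgb1 (-0.02 ± 0.09, edgeR adjusted p = 0.949). Itga1 was not called either (0.39 ± 0.12, edgeR adjusted p = 0.0671). Itga6, a laminin-binding integrin subunit, fell from 1196 to 1362 CPM in WT to 718.2 to 864.0 CPM in the cKO-labelled libraries. Bcam, which binds Lama5 chains, fell from 86.8 to 112.5 CPM to 56.4 to 67.6 CPM. The third lower gene was Itgb4, a partner of Itga6 (edgeR adjusted p = 0.0437). Without cKO 3 only Itga6 was called. Itgb4 was also lost without cKO 1, WT 1, WT 2 or WT 3 (edgeR adjusted p = 0.0614, 0.0816, 0.0608 and 0.051), while Itga6 was called in all 6 fits.

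Laminin binds dystroglycan through a long sugar chain that a set of enzymes builds. Of 17 tested genes for these enzymes 3 fell and 0 rose, with a median log2 fold change of -0.15. Over all genes tested, 6.17% were called lower and 4.77% higher. Ispd makes the activated ribitol on which the chain is set, and stood at 43.8, 57.5 and 42.2 CPM in WT and 31.1, 33.3 and 31.8 CPM in cKO 1, 2 and 3. It fell by 0.58 on the log2 scale (SE 0.13, edgeR adjusted p = 0.0201). B4gat1, which primes the laminin-binding repeat, fell by 0.38 (SE 0.10, edgeR adjusted p = 0.0373). Large, which polymerises that repeat, fell by 0.46 (SE 0.12, edgeR adjusted p = 0.0473). Each of the 3 was below every WT library in every cKO-labelled one, as were 15.8% of all genes. All 3 calls were lost without cKO 1, cKO 2, cKO 3 or WT 2 (edgeR adjusted p from 0.0506 to 0.167), and with total counts. The list had 1 lower call with upper-quartile scaling, and 2 with the replicate number as a block or a filter of 50 counts. It had 4 by DESeq2, by limma-voom, with the size factors of DESeq2 in edgeR and without WT 3.

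Adding muscle level to the fit left 0 called genes in the basal lamina, netrin, receptor and glycosylation lists, while every gene called before kept its direction. Because muscle level separates the groups, a call lost in this fit cannot be assigned to muscle. Several estimates stayed about as large or grew on the log2 scale, at -0.63 for Itga6, -0.86 for Bcam, -1.05 for Itgb4, -0.62 for Ntn3 and -0.39 for B4gat1 (edgeR adjusted p = 0.306, 0.129, 0.0803, 0.444 and 0.539). Col4a5 was at -1.10 and Col18a1 at 0.74 (edgeR adjusted p = 0.0513 and 0.0872). Col4a6 went from -3.26 to -2.52 (edgeR adjusted p = 0.395). Further from their first values, and smaller, were Fbln2 at 0.41, Large at -0.25 and Ispd at -0.23 (edgeR adjusted p = 0.523, 0.782 and 0.781).

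Markers of other cell types were read beside these values. All 12 skeletal muscle markers had a positive log2 fold change and 9 were called higher, with a median of 2.35, and muscle fibres make Lama2 themselves. Lama2 was lower in all 3 cKO-labelled libraries, and cKO 2, with the most muscle marker reads (8182 CPM), had the highest Lama2 of the 3. The WT libraries did not share this order. WT 2, with the fewest muscle marker reads (348.2 CPM), had the highest Lama2 (722.6 CPM), and WT 1, with the most (1368 CPM), had the middle value (692.0 CPM). Of 10 endothelial markers 0 were called, though all 10 log2 fold changes were above 0, and their sum was 407.2 to 653.1 CPM in WT and 554.8 to 646.1 CPM in the cKO-labelled libraries. Among 8 mural cell markers Cspg4 was called higher, and the sum was 319.7 to 493.7 and 484.8 to 545.3 CPM. Of 8 fibroblast markers 1 was called higher (Pi16), and of 7 perineurial markers 6 were tested and 1 was lower (Itgb4). Of 8 adipocyte and 7 macrophage markers 0 were called. Beside these counts, 4.77% of all genes were called higher and 6.17% lower. No marker of any list was at 0 in all libraries. WT 3 had the highest sum of the WT libraries for endothelial, mural, fibroblast, perineurial, adipocyte and macrophage markers. The part of these cells in the laminin values was not tested.

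Only some of the 8 Schwann cell markers are reported here. Of these, Gfra3, a receptor subunit, stood at 3.78 to 4.76 CPM in WT. In the cKO-labelled libraries it fell to 1.28 to 1.54 CPM (edgeR adjusted p = 0.00366). Sox10, the transcription factor of the lineage, was not called (log2 -0.17 ± 0.14), nor were Erbb3, Cdh19, Foxd3 and S100b.

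**Figure D5:**
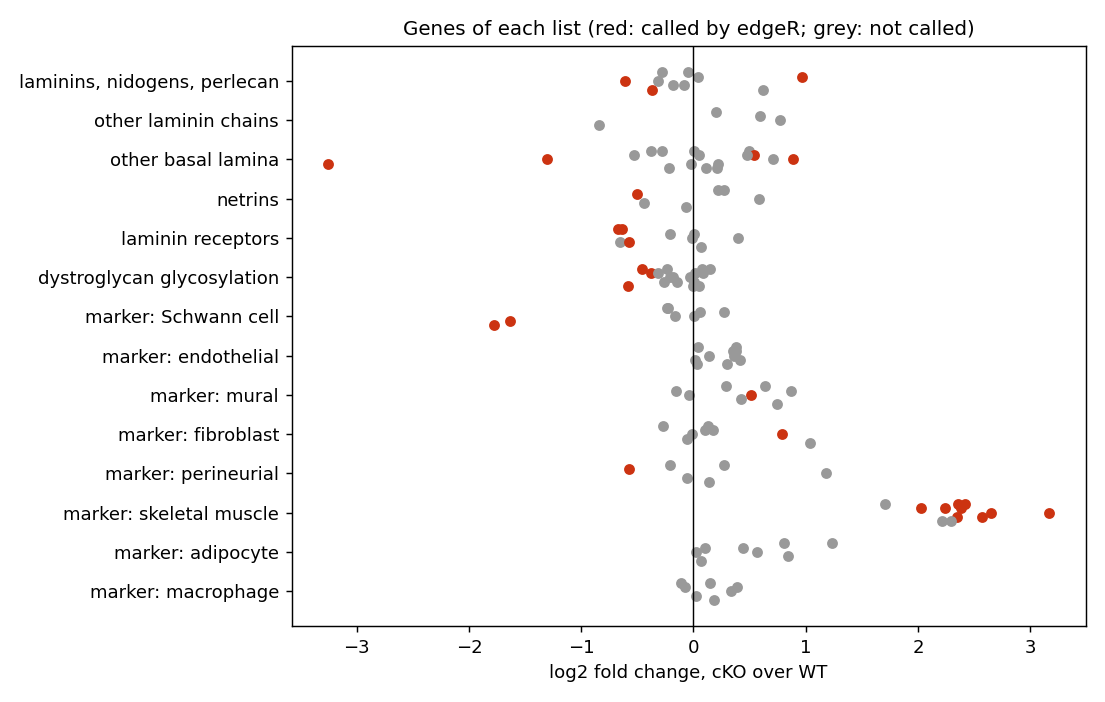
Log2 fold change (cKO over WT, x axis) of every tested gene in the laminin group, the 5 related lists and the 8 lists of cell type markers (rows), with genes called by edgeR in red. The muscle markers lie to the right of 0, with 9 of 12 called, and the laminin group spreads from -0.61 for Lama2 to 0.97 for Lama1.

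The genes whose profiles over the 6 libraries were most like those of the called members were found by the root mean square distance of centred log2 CPM among genes whose log2 CPM averaged 3 or more. The groups dominate such profiles with 6 libraries, so the likeness is a description. Among the 3 nearest to Lama2 were Chp1 (distance 0.039) and Mboat2 (0.04). Chp1 held 219.2, 236.9 and 226.3 CPM in WT and 146.1, 158.9 and 150.7 CPM in cKO 1, 2 and 3. Among the 3 nearest to Nid2 were Cyfip1 (0.025), an actin regulator, and the matrix protease Adamts15 (0.033). Nearest to Lama1 were AW551984 (0.12), the adhesion molecule Cadm2 (0.122) and Rbm38 (0.125), at distances several times those of the other genes named here.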

How the data were processed

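Total RNA of sciatic nerve was sequenced from TruSeq libraries, per the labels' protocols. The authors deposited raw counts of reads for each gene symbol, made with TopHat2 2.0.13 and HTSeq on mm10, per the submitters' processing notes. Neither annotation nor strand setting is given in the sources used here. The closing lines of HTSeq were left out of library sizes (reads of no gene 12.07% to 14.26% of a file, reads shared between genes 1.635% to 2.818%). A count of 3 corresponds to 0.0638 to 0.122 CPM, a limit that covers counting error only.

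Tests between cKO-labelled and WT libraries used edgeR 4.0.16 under R 4.3.3 (quasi-likelihood F test, filterByExpr with a minimum count of 10, TMM, group as the only term, Benjamini-Hochberg adjusted p under 0.05), and every list was read from that fit of 14789 genes. Each SE was derived from the estimate and its F statistic, as estimate over root F. Alternatives were DESeq2 1.42.0, limma 3.58.1 voom, other scalings and filters, each library left out, a replicate block, and the mean log2 CPM (prior count 2) of the muscle markers as a covariate. Gene lengths and positions came from GENCODE M21 (GRCm38, the same assembly as mm10), matched by symbol for 23334 of 24421 genes (95.5%). Levels and shares per longest transcript were added after seeing the data.

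All 10 members are named. From each list, every called gene could be named and otherwise up to 4 with the smallest p, and for each called member the 3 genes with the nearest profile. Sparc, Col4a1, Col4a2, Dag1, Itgb1 and other genes not called were named after their values were seen. Some genes these rules would name are not reported here. The members and lists were chosen with earlier results of these data known. The pipeline was tested on simulated data.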

Additional observations from a re-analysis of the deposited data

How the results depend on the processing

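The count of lower genes was 912, went to 606 with total counts and 149 with muscle level added to the fit, and ranged from 459 to 1120 when each library was left out. The count of higher genes was 706, went to 1273, 30 and, with the replicate number as a block, 461, and ranged from 276 to 1075. The lowest counts came without cKO 3 (459 lower and 276 higher), other large moves without WT 2 (575 lower, 409 higher), cKO 2 (395 higher), WT 1 (449 higher) and WT 3 (1075 higher). Of the members, 2 were called lower, 1 with total counts, 1 with the replicate block, 0 with muscle level added and 1 to 3 with a library left out. The 1 member called higher became 2 with total counts and by DESeq2, 0 with the replicate block and with muscle level added, and 0 to 2 with a library left out. Among 150 values of member log2 fold changes under the alternatives, 15 lost a call, 5 gained one and 130 stayed on their side of the threshold. With 3 values reversed among 90, the ratios kept their direction except for the summed alpha chains to Lamc1 (log2 difference 0.025), which was -0.019 without length and -0.064 to 0.099 with a library left out, below 0 without cKO 1 or WT 2 (-0.022). The cause of these changes was not tested.

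No pairing by replicate number was seen: deviations from the group means correlated at -0.207, -0.122 and 0.072 for numbers 1, 2 and 3. Libraries of unlike numbers correlated at -0.1 to 0.222, and 3 libraries per group are too few to decide whether samples were paired. With the replicate block Lama2 kept its call (log2 -0.61, edgeR adjusted p = 0.017), and Lama1 and Nid2 lost theirs (edgeR adjusted p = 0.0547 and 0.0936). Depth limits Lama1 most, at 105 to 201 reads per library.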
